A study of Mus musculus with 12 samples.

Results

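The genes described here are 10 that mark lipid-associated macrophages: Gpnmb, Mmp12, Trem2, Cd9, Spp1, Lgals3, Lgals1, Fabp5, Cd63 and Itgax. They were followed on microarrays of mice that lack both Prkch and Apoe (Prkch-/-Apoe-/-, called the double knockout below) and of mice that lack Apoe alone (Apoe-/-, the controls). Every probe set annotated to a single member was taken. This gave 9 of the 10 members among 19938 genes on the macrophage and liver arrays, with 10 probe sets, and 8 of the 10 among 12394 genes on the aorta arrays, with 11 probe sets. Spp1, the gene of osteopontin, had no probe set annotated to it alone in either annotation table, and Cd63 had none on the aorta arrays; these are not analysed here. The members were chosen by a rule that drew on measured differences between the genotypes on these arrays, so these differences are given as a description without a test.

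The liver arrays held RNA from Prkch-/-Apoe-/- males and from Apoe-/- males, 2 arrays of each, aged 20 weeks and re-fed after 12 weeks on a high-fat diet. The macrophage arrays held RNA of thioglycolate-elicited peritoneal macrophages, without stimulation, from Prkch-/-Apoe-/- females and from Apoe-/- females on regular diet. There were 3 arrays of each genotype, and replicates 1, 2 and 3 of both genotypes were aged 18, 17 and 27 weeks. The aorta arrays held RNA from fed Prkch-/-Apoe-/- males and fed Apoe-/- males aged 20 weeks after 12 weeks on the high-fat diet, with 1 array per genotype and RNA of 4 mice pooled on each. All mice were on a C57BL/6J background, and all lack Apoe, the apolipoprotein through which remnant lipoproteins are cleared, so no group is wild type for it. Neither the deleted stretch of Prkch nor a cell type to which the deletion is limited is given in the labels. These call the macrophage and liver arrays biological replicates.

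Lipid-associated macrophages are cells that take up lipid and cell debris in fatty liver, adipose tissue and atherosclerotic plaque, and that carry a shared set of transcripts. Trem2 encodes a surface receptor for lipids and lipoproteins that signals through the adaptor Tyrobp. Gpnmb encodes a transmembrane glycoprotein of lysosomes and Mmp12 the macrophage elastase, a secreted metalloproteinase. Cd9 and Cd63 encode tetraspanins, membrane organisers of the cell surface and of late endosomes. Lgals3 and Lgals1 encode galectins, which bind galactose-containing sugars, Fabp5 encodes a cytosolic carrier of fatty acids, and Itgax encodes the integrin chain CD11c. Prkch encodes protein kinase C eta.

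The macrophage and liver values are log2 probe set values as deposited, and the aorta values are linear signals. Array medians ran from 6.57 to 6.77 in macrophages and from 5.88 to 5.93 in liver, and were 30.1 for the double knockout aorta pool and 27.8 for the Apoe-/- pool. For Prkch, double knockout livers had 5.93 and 5.65 on the brighter probe set, against 6.57 and 6.87 in Apoe-/- livers. Double knockout macrophages had 9.36, 8.79 and 8.87, against 9.94, 9.86 and 9.31 in Apoe-/- cells, so replicate 1 of the double knockout lay above replicate 3 of the control. These arrays belong to different array sets, described below, and within each set every double knockout read below every control. The other Prkch probe set overlapped in liver, where it was below the limit for dim probe sets, 4.87. It read 3.94 and 4.21 in double knockout livers, against 4.08 and 4.04 in Apoe-/- livers. In the aorta Prkch was below the limit for dim probe sets on both arrays, at 9.94 units in the double knockout pool and 17.2 in the Apoe-/- pool. Hepatocyte markers were above the dim limit in liver (5 of 5 measured), macrophage markers in the macrophage arrays (11 of 11) and smooth muscle markers in the aorta (4 of 4). The limit does not tell the tissues apart. Smooth muscle markers also passed it in liver and in macrophages (4 of 4 in each), and macrophage markers passed it in liver (11 of 11).

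The median of the members' differences was largest in liver, the contrast from which they were drawn. Trem2 and Fabp5 differed more in macrophages. In liver every measured member had a lower mean in double knockouts than in Apoe-/- mice. Gpnmb and Mmp12 had the largest differences, followed by Lgals1, Cd63, Lgals3, Itgax and Trem2. For these 7 of 9 members both double knockout livers read below both Apoe-/- livers. Cd9 and Fabp5 overlapped between the genotypes. Over all 15942 liver genes, 18% had both double knockout arrays below both controls and 57.2% had a lower mean; 11.8% had both above, as 0 of 9 members did.

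Gpnmb (probe set 10538187) read 5.45 and 8.34 in double knockout livers, against 9.27 and 9.34 in Apoe-/- livers. The controls lay close together, and the double knockouts were far apart, with replicate 1 the lowest of the 4 arrays by a wide margin. The difference in means was -2.41 ± 0.73 on the log2 scale (SE, n = 2 and 2), or 18.8% of the control level. Without double knockout replicate 1 it was -0.97, and without replicate 2 it was -3.86.

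Mmp12 (probe set 10583056) read 6.44 and 7.87 in double knockout livers, against 9.02 and 8.91 in Apoe-/- livers. The same array was lowest, and the other double knockout still lay below both controls. The difference was -1.81 ± 0.38 (SE, n = 2 and 2), or 28.6% of control, and -1.09 without double knockout replicate 1.

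Trem2 (probe set 10445781) read 6.59 and 7.05 in double knockout livers, against 7.21 and 7.42 in Apoe-/- livers. The groups did not overlap, but the gap between the nearest arrays was small. The difference was -0.49 ± 0.18 (SE, n = 2 and 2), at 71.1% of control, and -0.27 without double knockout replicate 1.

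Gpnmb, Mmp12 and Trem2 are shown with the 250 bases upstream of their annotated start in RefSeq (GRCm38.p6, all on the plus strand), because Gpnmb and Mmp12 had the largest liver differences and Trem2 encodes the receptor of the group. Capitals mark GAGGAA, the core bound by the macrophage factor PU.1, or its reverse complement.
Gpnmb, chr6:49036268-49036517: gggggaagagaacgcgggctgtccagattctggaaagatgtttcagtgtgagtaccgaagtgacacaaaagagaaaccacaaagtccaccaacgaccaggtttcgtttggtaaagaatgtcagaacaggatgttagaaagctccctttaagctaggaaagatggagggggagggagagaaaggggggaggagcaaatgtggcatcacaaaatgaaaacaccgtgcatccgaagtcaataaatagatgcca
Mmp12, chr9:7344147-7344396: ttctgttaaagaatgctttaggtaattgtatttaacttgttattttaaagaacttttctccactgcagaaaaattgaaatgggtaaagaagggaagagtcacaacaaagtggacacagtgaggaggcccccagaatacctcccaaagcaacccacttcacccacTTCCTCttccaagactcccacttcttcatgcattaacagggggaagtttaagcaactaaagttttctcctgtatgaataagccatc
Trem2, chr17:48346151-48346400: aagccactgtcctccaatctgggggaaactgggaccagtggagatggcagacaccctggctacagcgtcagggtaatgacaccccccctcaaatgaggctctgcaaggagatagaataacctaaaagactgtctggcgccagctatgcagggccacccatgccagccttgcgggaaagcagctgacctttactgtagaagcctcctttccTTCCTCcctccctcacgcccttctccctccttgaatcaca

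Windows were found for 7 of the 9 measured members, 8 windows in all because Mmp12 has an additional start; Lgals1 and Fabp5 are only named. On either strand GAGGAA was in 3 of 8 member windows, those of Mmp12 (first start), Trem2 and Cd63, and in 23.3% of the 32851 windows of all genes. CATGTG, an M-box core of the MITF and TFE factors, was in 2 of 8 windows (the other Mmp12 start and Cd9), against 12.3% of all windows. The related E-box CACGTG was in 0 of 8 member windows and 6.02% of all windows. TGAGTCA, the site of AP-1, which on the other strand reads TGACTCA and was counted once, was in 2 of 8 (the other Mmp12 start and Itgax), against 4.46%. The Gpnmb window held none of these letters.

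The galectins were lower by different amounts. Lgals1 (probe set 10425161) read 8.08 and 8.39 in double knockout livers, against 9.82 and 8.98 in Apoe-/- livers, which put double knockouts at 44.6% of control (-1.17 ± 0.26, SE, n = 2 and 2). Here the spread was larger among controls, with control replicate 1 the highest array. Lgals3 (probe set 10414360) read 8.10 and 8.36 in double knockout livers, against 8.89 and 9.02 in Apoe-/- livers, which put them at 60.4% of control (-0.73 ± 0.15, SE, n = 2 and 2). Without that control array the difference of Lgals1 was -0.74, and without the other control it was -1.59. Without double knockout replicate 1 the differences were -1.01 for Lgals1 and -0.60 for Lgals3.

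The tetraspanins did not share a pattern. Cd63 (probe set 10367436) read 5.38 and 5.88 in double knockout livers, against 6.75 and 6.58 in Apoe-/- livers, which put double knockouts at 48.8% of control (-1.03 ± 0.18, SE, n = 2 and 2). Cd9 (probe set 10548030) read 7.87 and 8.37 in double knockout livers, against 8.29 and 8.42 in Apoe-/- livers. Its groups overlapped, and the difference of -0.23 ± 0.18 (SE, n = 2 and 2) became 0.01 without double knockout replicate 1 and -0.48 without replicate 2.

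Itgax (probe set 10557895) read 5.51 and 5.47 in double knockout livers, against 6.19 and 6.00 in Apoe-/- livers. It was the member whose double knockout arrays lay closest together, and its difference was -0.61 ± 0.14 (SE, n = 2 and 2), or 65.7% of control. Fabp5 (probe set 10585699) read 6.67 and 6.80 in double knockout livers, against 6.77 and 6.81 in Apoe-/- livers, a difference of -0.05 ± 0.13 (SE, n = 2 and 2). Its other probe set read 6.44 and 6.59 in double knockout livers against 6.54 and 6.56 in Apoe-/- livers, and so overlapped too. Fabp5 was at 96.4% of the control level on its brighter probe set, the smallest difference among the members.

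**Figure D1:**
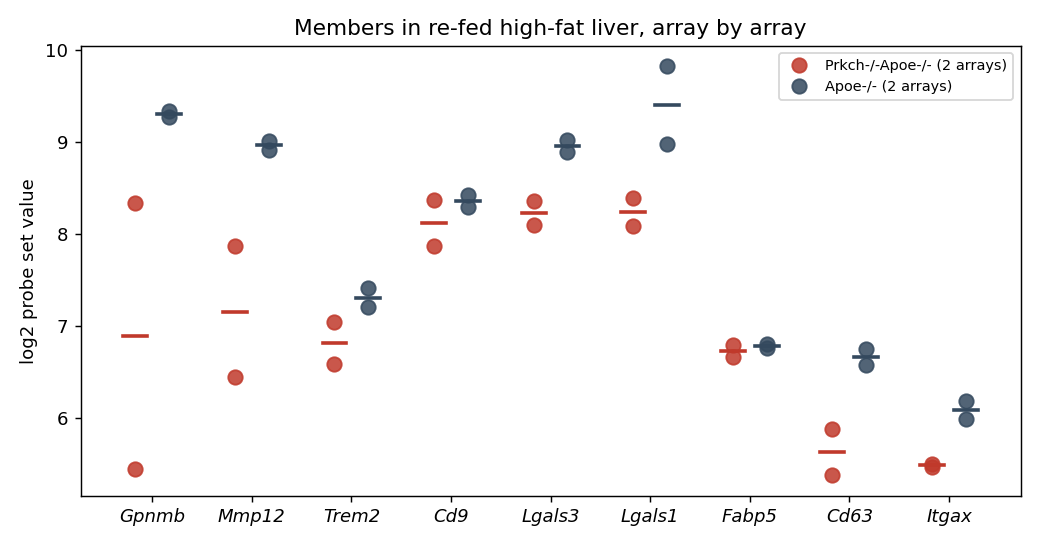
Log2 probe set value of each measured member on the 4 liver arrays; each point is an array, with the Prkch-/-Apoe-/- arrays left of the Apoe-/- arrays, and each line a group mean. Gpnmb and Mmp12 read 5.45 and 6.44 on the lowest double knockout array, and Cd9 and Fabp5 overlap between genotypes.

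The median of the 9 members' liver differences was -0.73, and the median of all 15942 genes was -0.02. For 4 members, Gpnmb, Mmp12, Lgals1 and Cd63, the mean was at least 2-fold lower, as it was for 0.132% of all liver genes. That count was 2 without double knockout replicate 1 (Mmp12 and Lgals1, beside 0.0879% of genes) and 2 without control replicate 1 (Gpnmb and Mmp12, beside 0.182%), and 4 without either of the other arrays. These counts belong to the contrast from which the members were drawn and carry no weight of their own. In limma with Benjamini-Hochberg adjustment over all genes, 0 of 15942 liver genes fell (0%) and 1 rose (0.00627%), Idi1, an enzyme gene of isoprenoid synthesis named here after its value was seen. That call was lost with quantile normalization, without the filter on dim genes, and without control replicate 1 or double knockout replicate 1 (0 called in each); with a replicate block 23 genes were called. In all, 684 (4.29%) had an unadjusted p under 0.05 in either direction.

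Array by array, double knockout replicate 1 deviated from the control mean by a members' median of -0.85 and replicate 2 by -0.62, with -0.02 and 0.02 in controls. With replicate 1 left out, the remaining double knockout lay below both controls for 7 of 9 members, beside 35.8% of all genes. Leaving out a double knockout array cannot lower that count, so it is no check of it. The deviations of single members on replicate 1 ran down to -3.86 for Gpnmb and -2.52 for Mmp12. On replicate 2 those genes deviated by -0.97 and -1.09.

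General macrophage markers moved with the members. All 11 had a lower mean in double knockout livers, beside 57.2% of all liver genes. An unadjusted limma p under 0.05 was found for 5 of the markers, beside 4.29% of all genes, though 0 markers were called after adjustment. The gene lists here and below were chosen with earlier results of these data known. Their counts are a description and no test of enrichment. The summed linear level of the 11 macrophage markers ran from 5516 to 6421 in double knockouts and from 7165 to 9795 in controls. Their median difference was -0.32. The largest were Cd68 (-0.84), a lysosomal glycoprotein, and Lyz2 (-0.65), lysozyme. All 8 markers of Kupffer cells, the resident liver macrophages, also had a lower mean (median -0.30, 0 called, 1 with an unadjusted p under 0.05), with sums from 6428 to 7524 in double knockouts and 7884 to 9714 in controls. By array the Kupffer median deviated by 0.05 on double knockout replicate 1 and by -0.58 on replicate 2, the opposite order to Gpnmb and Mmp12. It deviated by -0.19 and 0.19 on control replicates 1 and 2, so double knockout replicate 1 lay between the controls. The macrophage marker median deviated by -0.47 and -0.30 on the double knockouts and by -0.20 and 0.20 on the controls. Hepatocyte markers summed to between 69550 and 73290 in double knockouts and between 66630 and 68980 in controls. In whole liver, fewer cells of a type and less RNA per cell cannot be told apart, and the part these markers had in the members' differences was not tested.

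**Figure D2:**
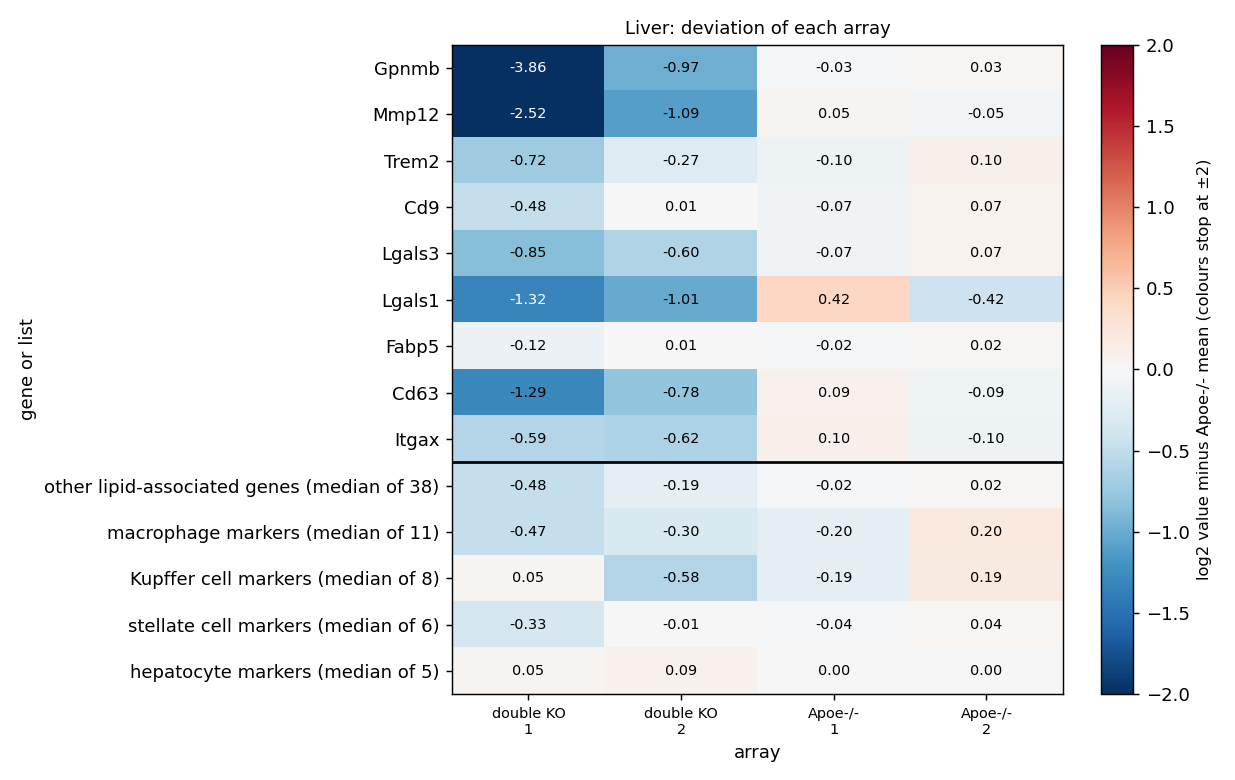
Deviation of each liver array from the Apoe-/- mean, in log2 units, for each member (rows above the line) and as the median of gene lists (rows below it); columns are the Prkch-/-Apoe-/- arrays, then the Apoe-/- arrays, and colours stop at ±2. Gpnmb deviates by -3.86 and -0.97 on the double knockout arrays, while the hepatocyte median deviates by 0.05 and 0.09.

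Over all liver genes, 57.2% had a lower mean and 4.29% an unadjusted limma p under 0.05. Other genes reported in lipid-associated macrophages, 38 of 40 measured, were lower in mean in 33 cases and higher in 5 in double knockout livers. Their median was -0.33, 0 were called after adjustment and 15 had an unadjusted limma p under 0.05. This list too was chosen with earlier results known, so its counts are a description. By array its median deviated by -0.48 and -0.19 on double knockout replicates 1 and 2. The largest were Cd36 (-1.11), which takes up fatty acids and oxidised lipoproteins, Clec7a (-0.97), the receptor dectin-1, Capg (-0.95), which caps actin filaments, and Cd68 (-0.84), also among the macrophage markers.

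The partners of the members were given by family, to be read beside the 57.2% of all liver genes with a lower mean and the 4.29% with an unadjusted limma p under 0.05. Of 12 Trem2 partners and signalling genes tested in liver, 10 had a lower mean and 2 a higher one, with a median of -0.20, 0 called and 2 with an unadjusted limma p under 0.05. The adaptor Tyrobp differed by -0.67, the kinase Syk by -0.47, Ms4a4a by -0.48 and Treml4 by -0.33. Of 8 leukocyte integrins and their ligands, 7 had a lower mean (median -0.27, 0 called, 2 with an unadjusted p under 0.05), led by Itgb2 (-0.76), the chain that pairs with CD11c. Icam1, an adhesion ligand of these integrins, followed at -0.50. Of 16 tetraspanins other than the members, 11 were lower and 5 higher, with Tspan13 at -0.53 and Tspan15 at -0.43 (median -0.17, 0 called, 2 at an unadjusted p under 0.05). The fatty acid binding proteins had 4 lower and 2 higher, with Fabp4 at -0.45 (median -0.13, 0 called, 2 at an unadjusted p under 0.05).

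The remaining families had medians closer to the one of all genes, of which 57.2% had a lower mean and 4.29% an unadjusted limma p under 0.05. Among 13 other metalloproteinases and their inhibitors 10 were lower and 3 higher with a median of -0.03, 0 called and 3 with an unadjusted limma p under 0.05. The inhibitor Timp1 differed by -0.56. The other galectins and their ligands had 4 lower and 3 higher (median -0.07, 0 called, 1 at an unadjusted p under 0.05). Receptors for osteopontin, the ligand encoded by Spp1, had 7 lower and 1 higher (median -0.11, 0 called, 1 at an unadjusted p under 0.05), with Cd44 at -0.45 and Itga5 at 0.30. The MITF and TFE factors and their lysosomal targets, a family known to drive Gpnmb, had 11 lower and 2 higher (median -0.12, 0 called, 0 at an unadjusted p under 0.05), with Gla at -0.35 and Flcn at -0.28.

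The genes outside the list whose liver profile was nearest to that of Gpnmb, by the root mean square difference of centred log2 values over the 4 arrays, were Ly6d (0.642), Acot1 (0.758), Vnn1 (0.785), Acot2 (0.828) and Cd207 (0.882). Mmp12 was nearer than any of these, at 0.603. Nearest to Mmp12 were Ly6d (0.272), Cyp2c38 (0.350), Fitm1 (0.357), Cd36 (0.365) and Gpr137b (0.416). Ly6d read 6.04 and 7.87 in double knockout livers, against 8.69 and 8.15 in Apoe-/- livers. These distances describe 4 arrays and share the contrast from which the members were drawn.

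In elicited macrophages all 9 members had a lower mean in double knockouts than in Apoe-/- cells, as did 63.5% of the 15039 genes tested, but the difference lay on 1 array. For 0 of 9 members did all double knockout arrays lie below all controls, beside 1.6% of all genes; for 0 of 9 did they all lie above, beside 0.652%. No member had an at least 2-fold lower mean (0 of 9, beside 0.0199% of genes). Without double knockout replicate 2 the count below was again 0 of 9, beside 3.19%. Differences ran from -0.55 for Itgax to -0.15 for Cd9, with a median of -0.39 beside -0.04 for all genes. In limma 0 genes were called in either direction, while 105 (0.698%) had an unadjusted p under 0.05.

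Itgax read 10.69, 8.28 and 10.87 in double knockout macrophages, against 10.64, 10.50 and 10.34 in Apoe-/- macrophages. Replicates 1 and 3 of the double knockout lay above every control, and replicate 2 lay below all other arrays. The difference of -0.55 ± 0.66 (SE, n = 3 and 3) became 0.29 without replicate 2. Trem2 read 11.84, 10.63 and 11.95 in double knockouts, against 12.02, 12.05 and 11.91 in controls, a difference of -0.52 ± 0.34 (SE, n = 3 and 3) that became -0.10 without replicate 2.

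Gpnmb, with the largest liver difference, read 14.11, 13.45 and 14.13 in double knockout macrophages, against 14.04, 14.04 and 14.12 in Apoe-/- macrophages. Mmp12 read 13.84, 12.85 and 13.93 in double knockouts, against 13.71, 13.70 and 13.78 in controls. For both genes double knockout replicates 1 and 3 lay above the control mean and replicate 2 lay below every other array. The differences of -0.17 ± 0.19 and -0.19 ± 0.28 (SE, n = 3 and 3) turned to 0.05 and 0.16 without replicate 2.

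The galectins were also lowest on replicate 2. Lgals3 read 13.40, 12.31 and 13.46 in double knockout macrophages, against 13.37, 13.44 and 13.43 in Apoe-/- macrophages. Lgals1 read 12.98, 11.82 and 13.19 in double knockouts, against 13.16, 13.05 and 13.17 in controls. The other double knockout arrays overlapped the controls, and the differences were -0.36 ± 0.30 and -0.47 ± 0.34 (SE, n = 3 and 3), or 0.02 and -0.05 without it.

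Fabp5 read 12.53, 11.66 and 12.67 in double knockout macrophages, against 12.74, 12.60 and 12.69 in Apoe-/- macrophages, a difference of -0.39 ± 0.26 (SE, n = 3 and 3). Its other probe set read 12.37, 11.51 and 12.50 in double knockouts against 12.57, 12.45 and 12.52 in controls, the same order with a difference of -0.39. Cd63 read 10.90, 9.93 and 11.13 in double knockouts, against 11.04, 11.06 and 11.23 in controls, a difference of -0.46 ± 0.30 (SE, n = 3 and 3). Cd9 read 12.69, 12.27 and 12.86 in double knockouts, against 12.72, 12.69 and 12.85 in controls, the smallest difference at -0.15 ± 0.16 (SE, n = 3 and 3). Without replicate 2 the differences of these genes were -0.08, -0.10 and 0.02. The control SD of the 9 members ran from 0.04 to 0.15 and the double knockout SD from 0.30 to 1.45.

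The arrays also fell into sets by values they share exactly. Of 35557 probe sets, 16075 to 18000 had the same value in any 2 of double knockout replicates 2 and 3 and control replicate 3. Among double knockout replicate 1 and control replicates 1 and 2 the number was 53 to 69, and across these sets it was 0 to 3. No member had an identical value among the arrays of the set with many. Within the set of double knockout replicate 1 the members' median difference was -0.01, within the other set it was -0.55, and with the set as a block it was -0.32. The set with the larger difference holds replicate 2. The median deviation of all genes was -0.09, -0.08 and -0.08 on double knockout replicates 2 and 3 and control replicate 3. It was 0.07, 0.04 and 0.03 on double knockout replicate 1 and control replicates 1 and 2. The share of all macrophage genes with a lower mean in double knockouts was not adjusted for these sets.

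Markers moved with replicate 2 as well. The members' median deviated from controls by -0.06, -1.10 and 0.06 on double knockout replicates 1, 2 and 3, whereas the median of the 11 macrophage markers deviated by -0.11, 0.54 and -0.16. The 5 monocyte markers measured deviated by -0.19, 1.00 and 0.22, and the 3 B cell markers by -0.72, 2.05 and -0.32. Lists of connective and lining cells deviated downwards on replicate 2, as the members did, but also on replicate 3. The 6 stellate cell markers, which fibroblasts share, deviated by 0.18, -0.85 and -0.49 on double knockout replicates 1, 2 and 3, with Dcn, the proteoglycan decorin, at a mean difference of -1.15. The 4 mesothelium markers deviated by -0.04, -0.37 and -0.37. Summed B cell marker levels ran from 448.8 to 3211 in double knockouts and from 480.9 to 1251 in controls, and summed monocyte levels from 10840 to 22770 in double knockouts and from 7513 to 12990 in controls. Of 5 hepatocyte markers measured, Alb and Ttr were below the dim limit of 5.74, and 3 passed it. Those were Apoa1 (means 6.90 in double knockouts and 6.80 in controls), Tat (6.12 and 6.10) and Cps1 (6.05 and 6.06). The means of Tat and Cps1 lay below the macrophage array medians of 6.57 to 6.77. The median of these 3 had the same deviation, -0.10, on every array of the set with many identical values. Passing the limit is thus no sign of hepatocyte transcripts. The part these markers had in the low values of replicate 2 was not tested.

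**Figure D3:**
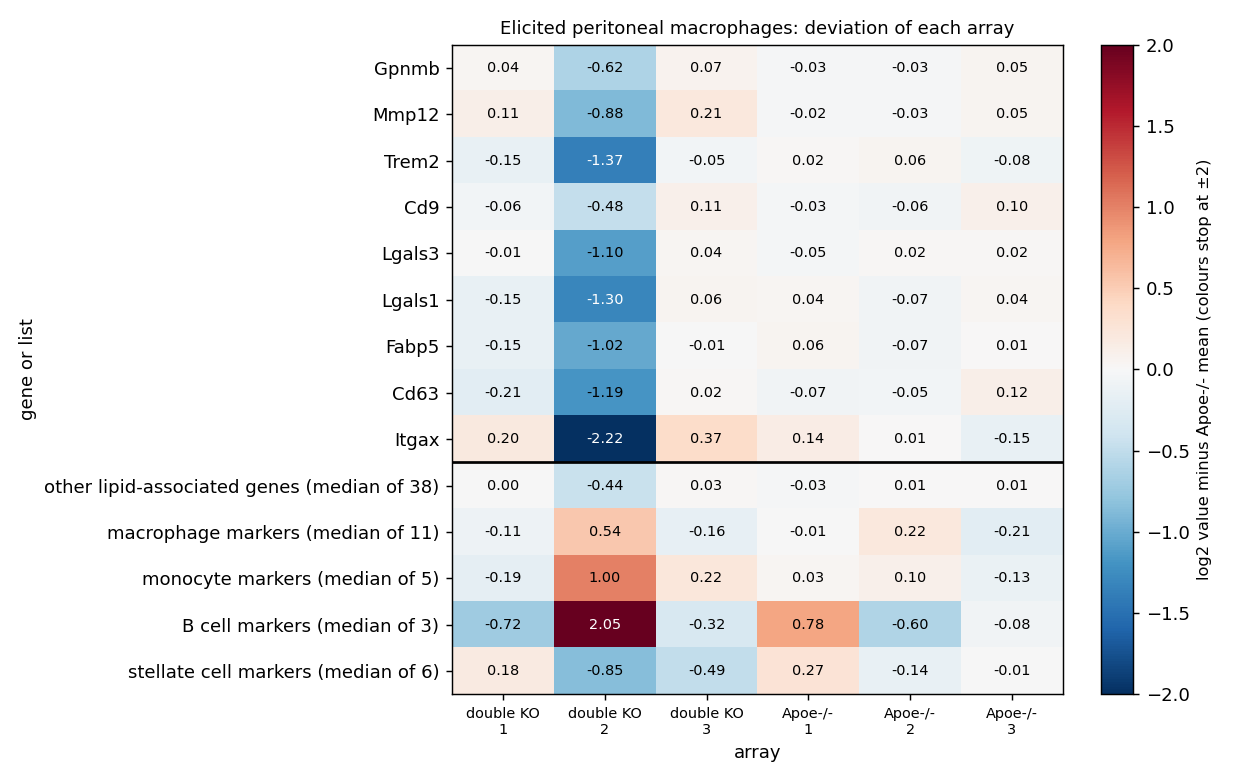
Deviation of each macrophage array from the Apoe-/- mean, in log2 units, for each member (rows above the line) and as the median of gene lists (rows below it); columns are the Prkch-/-Apoe-/- arrays, then the Apoe-/- arrays, and colours stop at ±2. The column of double knockout replicate 2 holds the low member values, down to -2.22 for Itgax, and the highest B cell median, 2.05.

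Over all 15039 macrophage genes, 63.5% had a lower mean and 0.698% an unadjusted limma p under 0.05. Of 38 other lipid-associated genes in macrophages 34 had a lower mean and 4 a higher one, with a median of -0.14, 0 called and 1 with an unadjusted limma p under 0.05. The largest were Ctsk (-0.62), the cysteine protease cathepsin K and also in the MITF and TFE list, Atp6v0d2 (-0.54), a subunit of the vacuolar proton pump, Syngr1 (-0.48) and Abcg1 (-0.46), a cholesterol exporter. By array this list deviated by 0.00, -0.44 and 0.03 on double knockout replicates 1, 2 and 3. The Trem2 partners had 5 lower and 9 higher (median 0.07, 0 called, 0 at an unadjusted p under 0.05), with Trem1 at 0.95 ± 1.19 (SE, n = 3 and 3). All 7 leukocyte integrins and ligands other than Itgax had a higher mean (median 0.09, 0 called, 0 at an unadjusted p under 0.05), where Itgax itself was at -0.55.

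In the aorta, with 1 pool per genotype and no replicate check, the members lay close together. Signals of Gpnmb were 1229 units in the double knockout pool and 1247 in the Apoe-/- pool, and those of Mmp12 were 309 in the double knockout pool and 363 in the Apoe-/- pool. None of the 8 measured members reached a 2-fold difference, which 2.52% of the 7098 genes kept did. For 4 of 8 the double knockout signal was lower, beside 51.5% of all genes. The median difference on the log2(signal + 16) scale was 0.01, and -0.01 for all genes.

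The largest aorta differences among members were -0.22 for Mmp12, at 85.2% of the control signal, 0.17 for Cd9, with 693 units in the double knockout pool and 614 in the Apoe-/- pool, and -0.17 for Lgals3, with 1129 units in the double knockout pool and 1269 in the Apoe-/- pool. Trem2 read 88.1 units in the double knockout pool and 80.5 in the control pool, and its other probe set, at 6.45 in the double knockout pool and 3.61 in the control pool, was below the dim limit of 32.6. Fabp5 read 2489 in the double knockout pool and 2516 in the control pool. Itgax read 91.4 in the double knockout pool and 88.2 in the control pool. The Lgals1 probe sets disagreed in direction: the brighter read 2232 in the double knockout pool and 2169 in the control pool, the other 1280 in the double knockout pool and 1469 in the control pool.

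Cell markers also differed between the pools. Summed macrophage marker signals were 5893 in the double knockout pool and 5597 in the Apoe-/- pool, and those of monocyte markers 1486 in the double knockout pool and 1084 in the Apoe-/- pool. Smooth muscle markers summed to 4391 in the double knockout pool and 3548 in the Apoe-/- pool, and B cell markers to 628.1 in the double knockout pool and 88.31 in the Apoe-/- pool. Of 34 other lipid-associated genes 15 were lower and 19 higher, beside 51.5% of all genes lower. By 2-fold 0 of them differed, beside 2.52% of all genes, and Mgll, a lipase of monoacylglycerols, was at -0.62. Among 11 other metalloproteinases and inhibitors, Mmp3 and Mmp13 were the 2 that passed 2-fold. Mmp3, stromelysin, had 240 units in the double knockout pool and 101 in the control pool. Mmp13, a collagenase, had 59.8 in the double knockout pool and 19.3 in the control pool, the latter below the dim limit of 32.6. Of these 11 genes 9 were higher and 2 lower in the double knockout pool. Mmp12 did not share the direction of Mmp3 and Mmp13, with 1 pool per genotype. How the markers bear on these values was not tested.

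**Figure D4:**
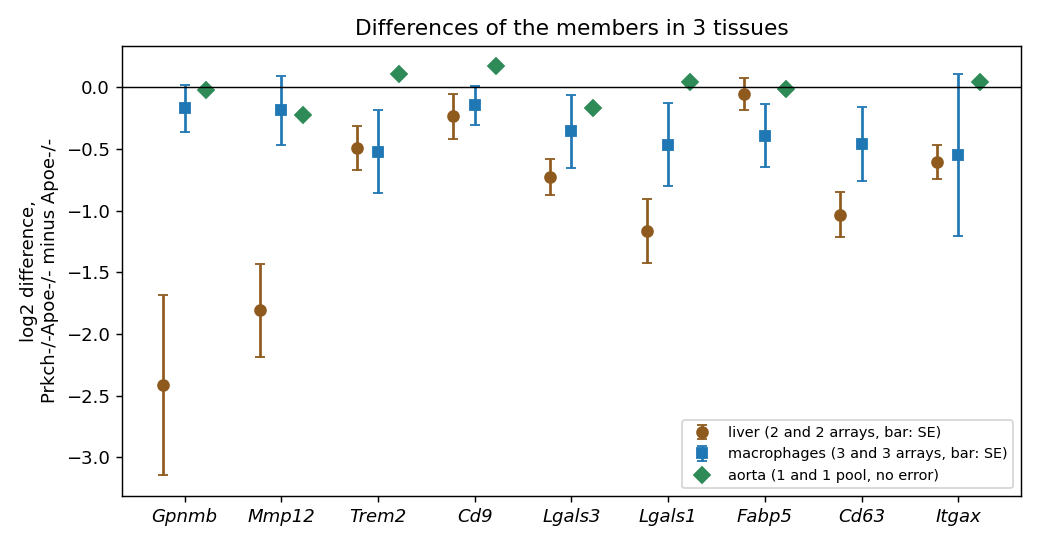
Log2 difference, Prkch-/-Apoe-/- minus Apoe-/-, of each measured member in liver (circles, 2 and 2 arrays), macrophages (squares, 3 and 3 arrays) and aorta (diamonds, log2(signal + 16), 1 and 1 pool, no error); bars are the SE of the fit. Gpnmb reads -2.41 in liver, -0.17 in macrophages and -0.02 in the aorta.

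Side by side, the differences of Gpnmb were -2.41 in liver, -0.17 in macrophages and -0.02 in the aorta, and those of Mmp12 were -1.81, -0.19 and -0.22. Trem2 differed by -0.49 in liver, -0.52 in macrophages and 0.11 in the aorta. Fabp5 had its smallest differences in liver and aorta (-0.05 and -0.02) and -0.39 in macrophages. Without double knockout replicate 2 the macrophage differences of Trem2 and Fabp5 were -0.10 and -0.08. Macrophages differ from liver in sex, diet and age as well as tissue. Aorta and liver came from males of the same age and diet, but the aortas were from fed and the livers from re-fed mice, and the array type differed. The tissues are set beside each other without a test.

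The members' levels in macrophages and in liver were also set against each other within each genotype. The members were listed as macrophage genes, and the liver arrays are those of the contrast that chose them, so these differences are a description and no p is given for a member. All 9 members had higher values in macrophages than in liver, both in double knockouts and in Apoe-/- mice. Their choice as macrophage genes made this likely beforehand, so no call is counted for them. The share of all genes that limma called higher in macrophages was large, at a Benjamini-Hochberg adjusted p under 0.05. It was 69.9% of 15506 genes in double knockouts and 75.9% of 15560 in Apoe-/- mice. The median of all genes was shifted by 0.78 in double knockouts and 0.80 in Apoe-/- mice, a shift that quantile normalization moved to -0.04 in both; 29% of genes in double knockouts and 32.8% in Apoe-/- mice were then called higher. With arrays centred on their medians the shares were 32.2% in double knockouts and 36% in Apoe-/- mice. All 9 members had higher values in macrophages under these scalings too. The members' differences were far above this shift, from 4.42 to 7.00 in double knockouts and from 3.72 to 5.89 in Apoe-/- mice. In double knockouts 0.993% of genes, and in Apoe-/- mice 1.94%, had a difference at least as large as the smallest member's.

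Gpnmb averaged 13.90 ± 0.39 in double knockout macrophages and 6.89 ± 2.04 in double knockout livers (SD, n = 3 and 2), a difference of 7.00 ± 0.79 (SE). In Apoe-/- mice it averaged 14.07 ± 0.05 in macrophages and 9.31 ± 0.05 in livers, a difference of 4.76 ± 0.11 (SE). Mmp12 had a difference of 6.38 ± 0.50 in double knockouts and 4.76 ± 0.11 in Apoe-/- mice. Both genes thus had a larger macrophage-to-liver difference in double knockouts, which restates their low liver values and was not tested.

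Fabp5, which hardly differed between genotypes in liver, had differences of 5.55 ± 0.31 in double knockouts and 5.89 ± 0.11 in Apoe-/- mice, the largest among the members in Apoe-/- mice. Trem2 differed by 4.65 ± 0.41 in double knockouts and 4.68 ± 0.12 in Apoe-/- mice. Lgals1 had the smallest differences, 4.42 ± 0.40 in double knockouts and 3.72 ± 0.21 in Apoe-/- mice. Itgax had the widest error relative to its difference, 4.46 ± 0.76 in double knockouts, and differed by 4.40 ± 0.13 in Apoe-/- mice. The other members, Cd9, Lgals3 and Cd63, lay between 4.48 and 5.02 in double knockouts and between 4.40 and 4.46 in Apoe-/- mice. The differences compare males on high-fat diet with females on regular diet, and tissue, sex, diet and age cannot be told apart here.

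**Figure D5:**
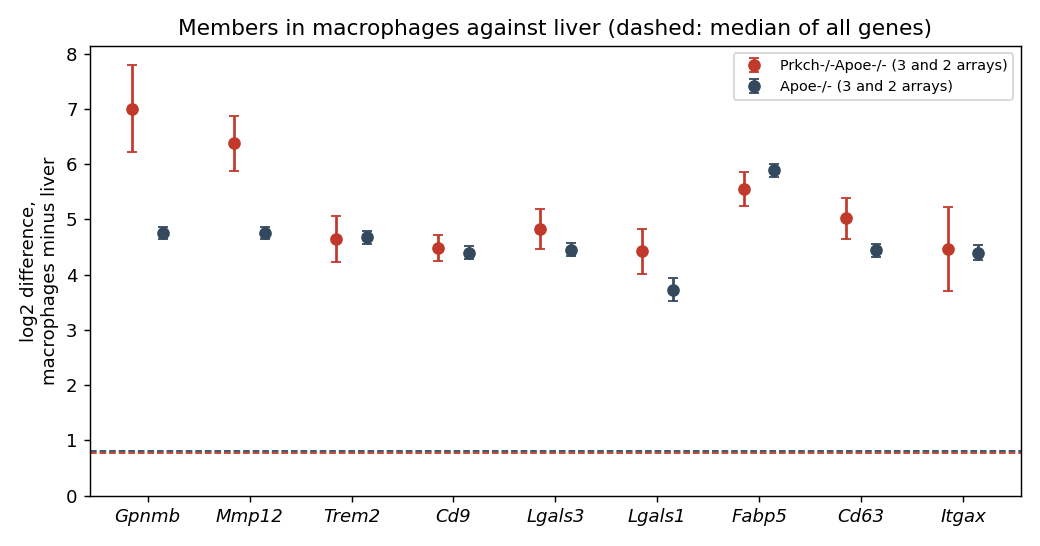
Log2 difference, macrophages minus liver, of each measured member in Prkch-/-Apoe-/- and in Apoe-/- mice (3 and 2 arrays each); bars are the SE of the fit and dashed lines the median of all genes, 0.78 and 0.80. All members lie above 3.7, and Gpnmb and Mmp12 lie at 7.00 and 6.38 in double knockouts against 4.76 and 4.76 in controls.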

How the data were processed

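Per the submitters' processing notes, the authors used Affymetrix Expression Console; no version or algorithm is given in the sources used here. For macrophages and liver the deposited values (Mouse Gene 1.0 ST arrays) were taken as log2 probe set values and the deposited aorta values (430A 2.0 arrays) as linear intensity, from their range. A gene took its brightest probe set with 1 symbol. Genes with a mean under percentile 30 over probe sets were dropped, and all 9 measured members stayed; in the aorta the brighter array had to reach the median signal, 32.6, and differences are on the log2(signal + 16) scale, which understates those of dim genes. Each tissue was fitted alone with limma 3.58.1 in R 4.3.3 (lmFit, eBayes, Benjamini-Hochberg over all genes, threshold 0.05), which was checked on simulated data. Replicate number, array set, quantile normalization, probe set averaging, the filter and single arrays were varied. P-values reflect only how these arrays vary, and the number of arrays limits precision.

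The members, gene lists, tests and naming rule were chosen with earlier results of these data known. All members were named; of each list up to 4 genes with the largest absolute difference, and 5 genes nearest to Gpnmb and to Mmp12. The counts without overlap that leave out double knockout liver replicate 1 or macrophage replicate 2, and the 2-fold counts without single liver arrays, were added after seeing the data. Of the lipid-associated list, Acp5 and Ctsk are also in the MITF and TFE list, Tyrobp is among the Trem2 partners, Fabp4 among the fatty acid binding proteins, Cd68 among the macrophage markers and Cx3cr1 among the monocyte markers. The macrophage-to-liver fits were planned as tests and are given as a description, since they share arrays with the contrast that chose the members.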

Additional observations from a re-analysis of the deposited data

How the results depend on the processing

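The members' median difference in liver was negative under every alternative. Both double knockouts lay below both controls for 7 of 9 members, so leaving out an array could not turn that sign. The members were also drawn from this contrast, so the sign is no check. All 9 members also kept higher values in macrophages than in liver, which their choice as macrophage genes made likely beforehand. The liver median was -0.73, was -0.95 as a mean over members, and ran from -0.85 to -0.62 when single arrays were left out; Cd9 and Fabp5 turned to 0.01 without double knockout replicate 1. In macrophages the median of -0.39 was 0.02 without double knockout replicate 2 and ran down to -0.58 when other arrays were left out. The number of liver genes called was 1, 0 with quantile normalization, 0 without the filter on dim genes, 23 with a replicate block, and between 0 and 39 when single arrays were left out, where the spread comes from the other genotype alone and the lone array is assumed to vary like it; the cause of these changes was not tested. The number of members at least 2-fold lower in liver was 4, and 2 to 4 when single arrays were left out. The samples were treated as unpaired because a shared number marks only a shared age in the labels. Not every macrophage pair deviated together (correlations of deviations from the group means 0.40, 0.0295 and 0.496 for replicates 1, 2 and 3). The pairs of replicates 1 and 3 each lay within an array set, and that of replicate 2 lay across the sets. The check therefore cannot tell a shared age from a shared set. In liver, with 2 arrays per genotype, the check gives a single value of 0.11. The replicate block could not change the members' differences, because both genotypes have the same replicate numbers. It gave 0 called genes in macrophages. The aorta median of 0.01 was -0.092 with quantile normalization, where Lgals1 stood at -0.13 and Fabp5 at -0.22. With 2 liver arrays per genotype, the spread is estimated from few values, and the aorta has none.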
